A study of Drosophila melanogaster with 6 samples.

Results

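Genes whose names are the letters CR and a number are the loci that the fruit fly annotation lists as making no protein, and 88 of the 7762 genes in the authors' deposited comparison of wing and haltere imaginal discs carry such a name. The rule takes every row whose name is CR followed by digits and uses no measured value. The discs are the larval epithelia that form the wing on the second thoracic segment and the haltere, a small balancing organ, on the third. They came from wild-type Canton S Drosophila melanogaster larvae at the wandering L3 stage, with 3 wing disc samples and 3 haltere disc samples, and the labels give both groups the genotype Wild Type and name no treatment. The series concerns Ubx (Ultrabithorax), the homeotic gene that makes the dorsal appendage of the third segment a haltere. The deposited values are 1 fold change, 1 mean level, 1 p-value and 1 adjusted p-value (FDR) per gene, from an edgeR fit over all 6 samples, so no value for a single sample, no SD and no depth per library can be given. No file used here holds the sequences of these genes, so none is printed.

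Long non-coding RNAs are transcribed and often spliced and polyadenylated like messenger RNAs, but have no long open reading frame. Some work at the locus where they are made, by transcription across a neighbouring gene or by pairing with its antisense transcript, and some act elsewhere as parts of RNA-protein complexes, as the roX RNAs do in dosage compensation of the male X chromosome. In the fly, the bithorax and Antennapedia homeotic complexes are rich in such transcripts. Per the labels' protocols the libraries were made from selected mRNA with a directional kit, a selection that favours RNAs with a poly(A) tail.

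The name covers more than long non-coding RNAs. RefSeq (Release 6 plus ISO1 MT) holds 77 of the 88 names, and 11 were not matched. Of the matched genes, 59 are annotated as long non-coding RNA and 12 as antisense RNA. Another 4 are a ribosomal RNA gene or ribosomal RNA pseudogenes, namely CR41548, CR41602, CR41609 and CR40596. CR32207 is a hairpin RNA and CR43727 a pseudogene. A few have since been renamed: CR44811 is now bsAS, the antisense RNA of blistered, CR43283 is cherub, an RNA known from tumours of fly neural stem cells, and CR43432 is marge.

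The sources used here do not give the direction of the fold change. Ubx RNA marks the haltere disc, and the authors' deposited table puts it at a log2 fold change of -5.22 (edgeR FDR = 2.98e-59). Positive values are therefore read here as higher in wing discs than in haltere discs, and that reading is an assumption. Genes that define both discs were present in the authors' deposited table, with mean levels of 6.80 log2 CPM (log2 of counts scaled to a common library total) for vg, 6.47 for nub, 7.36 for ap and 8.15 for sd. The pouch genes vg and nub had positive values that did not pass, 0.82 (edgeR p = 0.00372, FDR = 0.195) and 0.81 (edgeR p = 0.00135, FDR = 0.0878) in the authors' deposited table, the sign of the 4 called CR genes described here. The authors' deposited table lists ap at -0.08, sd at 0.24 and wg at -0.57 on the same log2 scale, with an FDR of 0.862 for wg and 1 for ap and sd (edgeR). In whole discs, fewer cells of a type and less RNA per cell cannot be told apart. Markers of other larval tissues were also measured: counted in the authors' deposited table, 5 of 7 fat body markers, 5 of 5 salivary gland markers and 8 of 11 muscle markers had an FDR under 0.05 (edgeR), all negative. None of the 6 blood cell, 5 tracheal, 2 neuron and 2 testis markers did. The part of either marker group in the values of the CR genes was not tested.

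Of the 88 CR-named genes, 4 had an FDR under 0.05 (edgeR) in the authors' deposited table, CR45310, CR44334, CR44932 and CR44811, and all 4 were higher in wing discs. The same rule called 1.34% of all 7762 genes, 0.464% in the wing direction and 0.876% in the haltere direction. The 4 are 4.55% of the CR-named genes. No CR gene was called as higher in haltere discs (edgeR). At an unadjusted p-value under 0.05 only CR44955 was higher there, with 5 CR genes past that limit in both directions (5.68%, against 4.32% of all genes). These counts follow the names as deposited. The RNA listed there as pncr002:3R is now named lncRNA CR33938, and it was called in the haltere direction, at -2.98 (edgeR FDR = 5.48e-23). The 4 called genes were the only CR genes with an FDR below 1 in the authors' deposited table. The FDR nearest to the threshold from inside was 0.0305, for CR44811, and all 84 others stood at 1.

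**Figure D1:**
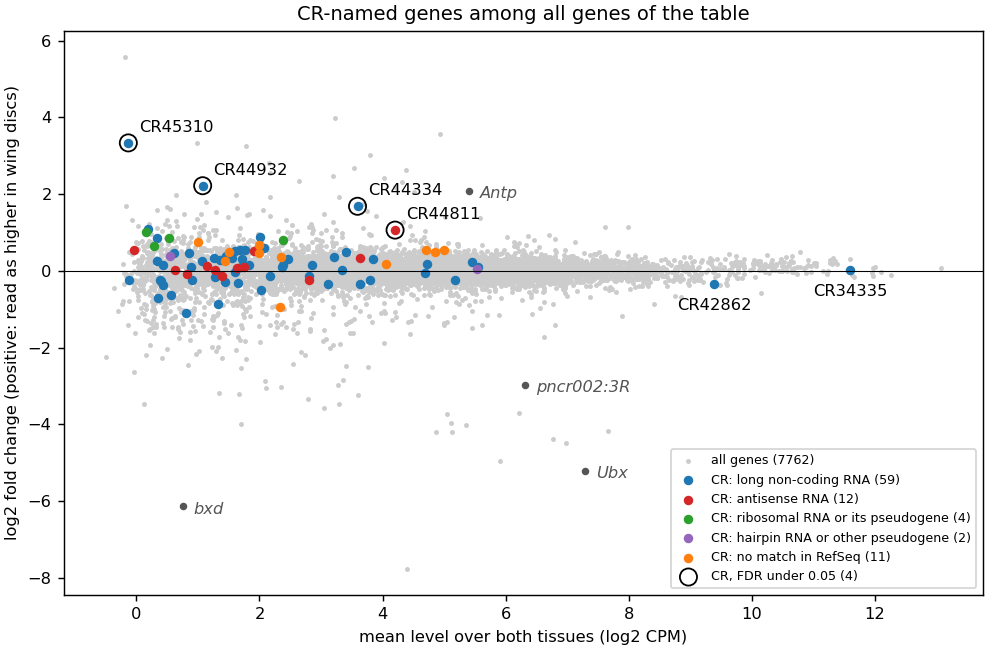
Log2 fold change of wing over haltere discs, as read from Ubx, against mean level in log2 CPM for all 7762 genes (grey) and the 88 CR-named genes, coloured by annotation. The 4 ringed genes have an FDR under 0.05 and lie at log2 fold changes of 1.06 to 3.33, while Ubx, bxd and pncr002:3R lie far below 0.

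CR44932 lies at the Antennapedia locus. Antp, a homeotic gene that acts in the thorax, spans chr3R:6896253-6999228 on the minus strand of build dm6, and CR44932 (chr3R:6895178-6896128, same strand, 2 exons) begins 124 bases past its annotated 3′ end. The authors' deposited table puts CR44932 at a log2 fold change of 2.22 (edgeR p = 0.000247, FDR = 0.0213). The log2 standard error implied by that p-value, the change divided by the matching normal quantile, is 0.60. For Antp the same quantity in the authors' deposited table is 2.08 (edgeR FDR = 3.56e-10). The fold changes of the pair differ by less than the implied error of CR44932. That error is a rough value and leaves out the error of Antp, and the difference was not tested. Spread over both tissues with equal weight, the mean level of CR44932 in the authors' deposited table, 1.08 log2 CPM, and its fold change correspond to about 3.47 CPM in wing discs and 0.748 CPM in haltere discs.

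CR44811, or bsAS, is made from within bs (blistered), on the other strand. The gene bs encodes the fly serum response factor, a transcription factor of the intervein cells of the wing, and bsAS is known in the fly wing disc as an antisense RNA that affects which isoforms of bs are made. In the authors' deposited table CR44811 had a log2 fold change of 1.06 (edgeR p = 0.000381, FDR = 0.0305), at a mean level of 4.20 log2 CPM. That corresponds to about 24.9 CPM in wing discs and 11.9 CPM in haltere discs, with an implied standard error of 0.30 on the log2 scale. For bs the authors' deposited table gave 0.81 (edgeR p = 0.00582, FDR = 0.271), at 4.63 log2 CPM. The antisense RNA therefore passed the threshold and its partner did not, but the difference between their fold changes, smaller than the implied error of CR44811, was not tested. The span of CR44811 (chr2R:24351477-24369689, minus strand, 2 exons) lies wholly inside that of bs (chr2R:24342861-24376473, plus strand), and their annotated exons share 0 bases.

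CR44334 lies 2708 bases upstream of rn (rotund), which encodes a zinc finger transcription factor of the developing appendages, on the same strand. It is a single exon of 521 bases at chr3R:7312338-7312858. The authors' deposited table lists it at a log2 fold change of 1.68 (edgeR p = 1.84e-05, FDR = 0.00242). At a mean level of 3.59 log2 CPM, this corresponds to about 18.4 CPM in wing discs and 5.74 CPM in haltere discs, and the implied standard error is 0.39 on the log2 scale. For rn the authors' deposited table gave 0.51 (edgeR p = 0.092, FDR = 1), at 5.85 log2 CPM. The neighbour has the sign of CR44334 and a smaller change that did not pass, and the difference between the genes was not tested.

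CR45310 had the largest change of the CR-named genes, at a low level. The authors' deposited table gave it a log2 fold change of 3.33 (edgeR p = 5.91e-06, FDR = 0.000921). Its mean level was -0.13 log2 CPM in the authors' deposited table, rank 7749 of 7762. That corresponds to about 1.66 CPM in wing discs and 0.165 CPM in haltere discs. The lowest mean level of any of the 7762 genes was -0.49 log2 CPM, so genes below that have no row. Whether CR45310 has a row only through its reads in wing discs was not tested. The implied standard error is 0.74 on the log2 scale, the largest of the 4 called genes. It is a single exon (chr2R:18226795-18228595, plus strand) that shares part of its span with the annotated lncRNA CR45311 on the other strand, for which no value was analysed here. The nearest gene with a row is fj (four-jointed), a Golgi kinase that acts on the cadherins Fat and Dachsous, 4165 bases downstream on the same strand. For fj the authors' deposited table gave 0.12 (edgeR p = 0.635, FDR = 1), at 6.14 log2 CPM, so this neighbour did not pass.

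**Figure D2:**
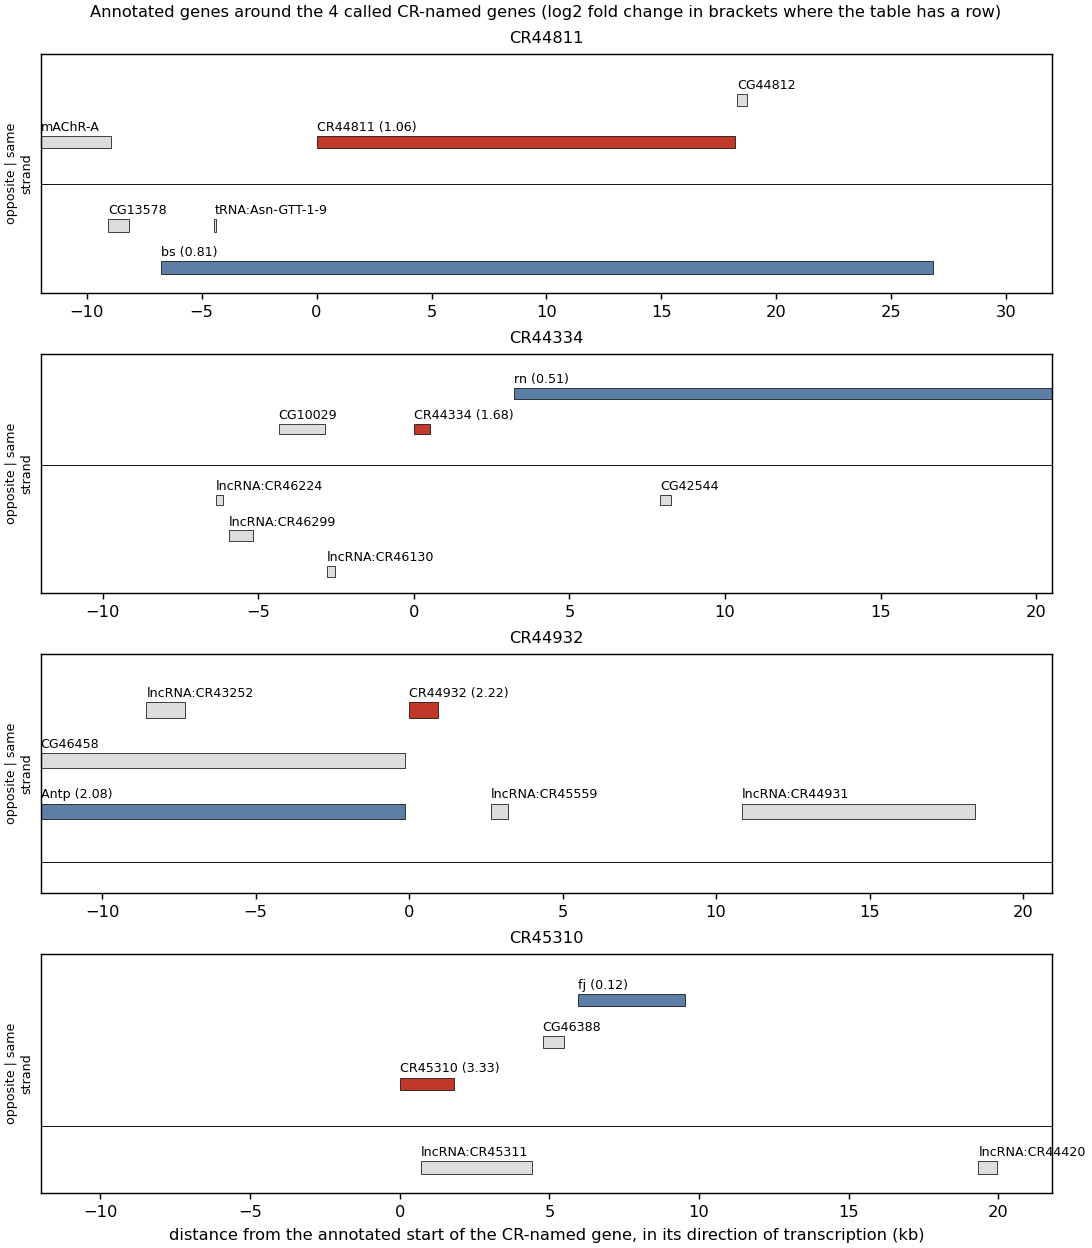
Annotated genes around CR44811, CR44334, CR44932 and CR45310, drawn to scale by distance in kb from the start of each CR gene along its direction of transcription, with genes on its own strand above the line and genes on the other strand below; grey genes have no row in the table and bars end at the edge of the panel where the gene runs on. Log2 fold changes of wing over haltere discs, as read from Ubx, are in brackets: Antp (2.08) is close to CR44932 (2.22), bs (0.81) holds CR44811 (1.06), and rn (0.51) and fj (0.12) are below their CR neighbours.

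Most CR-named genes had low levels. On the log2 CPM scale, which reflects the reads behind a test and is not adjusted for length, their median mean level was 1.67 log2 CPM in the authors' deposited table, against 4.42 for the other 7674 genes, and 63 of the 88 fell in the lowest quartile of all genes. Only 14, 9 and 2 fell in the quartiles above it, in rising order. Scaled to exon length, the median over the 77 with annotated exons was 1.41 log2 CPM per kb, against 3.16 for 7553 protein-coding genes of the table. Few annotated RNAs of this kind have a row under a CR name. Of 2414 non-coding RNA genes that the Ensembl release 115 annotation names by a CR number, 69 have such a row (2.86%). Of 13986 protein-coding genes, 54% have a row. Genes with a row under another name, such as pncr002:3R, now lncRNA CR33938, are not among the 69, so the share is a lower bound. The Ensembl annotation runs to higher CR numbers than the table does. Among the 1750 with a number no higher than the highest in the table, the share counted in the same way was 3.89%.

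**Figure D3:**
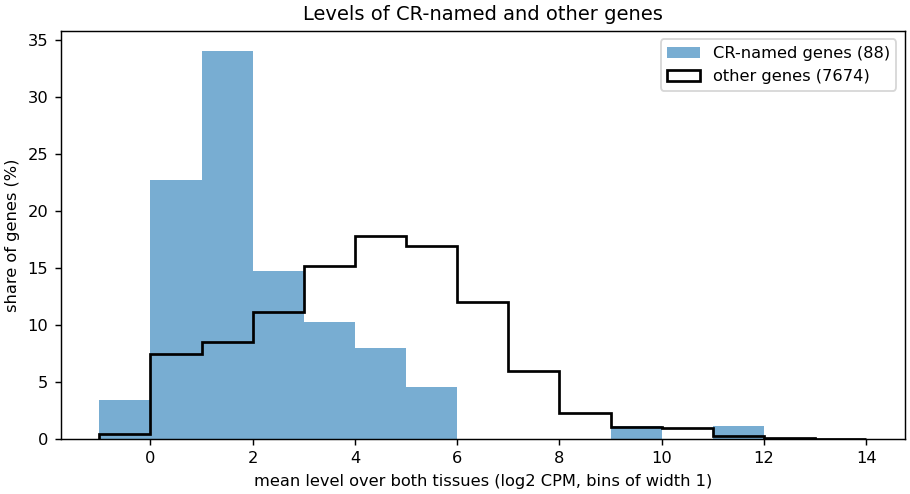
Share of genes, in percent, by mean level over both tissues in bins of 1 log2 CPM, for the 88 CR-named genes (filled) and the other 7674 genes (line). The CR-named genes have a median of 1.67 log2 CPM and the other genes a median of 4.42, and CR42862 and CR34335 make up the separate bars at the right.

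A pair of abundant RNAs stand apart from the rest. CR34335 is a 361-base RNA on the X chromosome inside the span of CG32791. Its mean level was 11.59 log2 CPM in the authors' deposited table, rank 10 among all 7762 genes on a scale not adjusted for length. The authors' deposited table lists its log2 fold change as 0.0081 (edgeR p = 0.979), which corresponds to about 3100 CPM in wing discs and 3083 CPM in haltere discs. At 13.06 log2 CPM per kb of exon it was also the highest of the CR genes per length. CR42862 on chromosome arm 3L had 9.39 log2 CPM, rank 141, and a log2 fold change of -0.35 (edgeR p = 0.208) in the authors' deposited table. Of the 10 CR genes with the highest mean level, the other 8 lay between 4.71 and 5.55 log2 CPM, and none of the 10 was called. Their log2 fold changes ran from -0.35 for CR42862 to 0.54 for CR41535 in the authors' deposited table. They include the hairpin RNA CR32207 (0.04) and 3 genes with no match in RefSeq, CR41535, CR41544 (0.48) and CR40685 (0.53).

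Small changes were less frequent among the CR genes than in the table as a whole, as a description with no test. Of the 88, 61 in the authors' deposited table lay within 0.5 of 0 on the log2 scale (69.3%), against 89.9% of all genes and 75.7% of the 1941 genes of the lowest level quartile. The median absolute change was 0.32, against 0.16 over all 7762 genes and 0.27 over the lowest quartile. A change of at least 1 in size was reached by 7 CR genes (7.95%), against 3.5% of all genes and 8.91% of the lowest quartile. Among these, CR45018 (1.09), CR41609 (1.02) and CR44955 (-1.09) did not pass, with p-values of 0.0766, 0.114 and 0.0494 (edgeR) in the authors' deposited table and mean levels of 0.19, 0.15 and 0.81 log2 CPM. In that quartile the smallest change called for any gene in the authors' deposited table was 1.63.

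**Figure D4:**
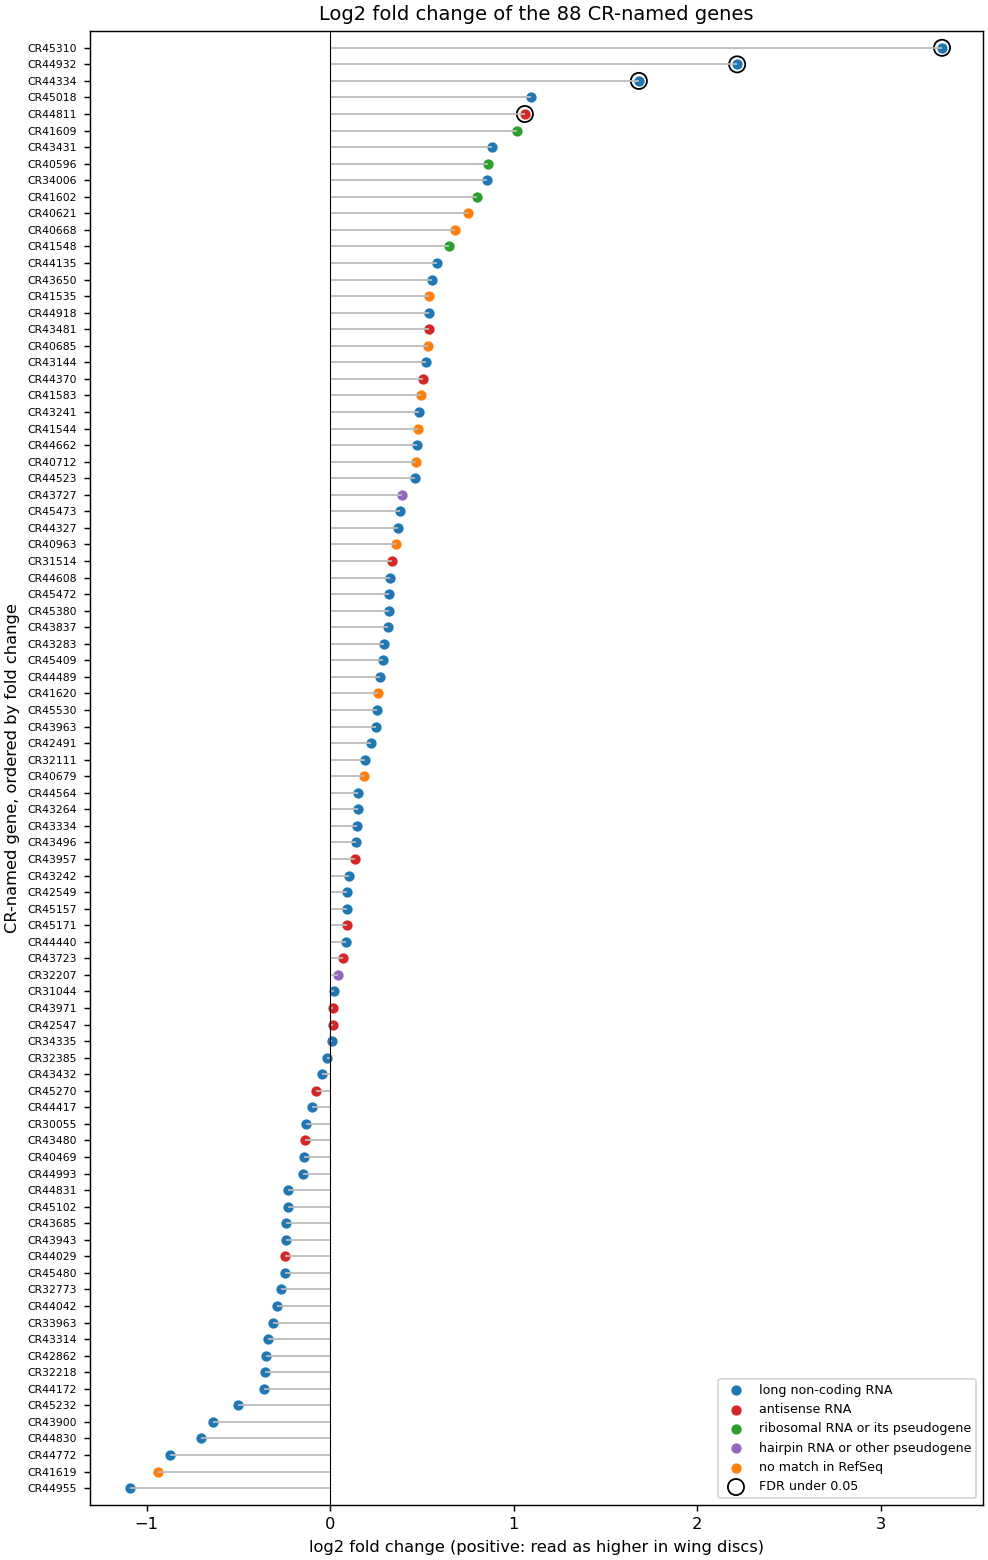
Log2 fold change of wing over haltere discs, as read from Ubx, for each of the 88 CR-named genes in order of size, coloured by annotation, with the 4 genes at an FDR under 0.05 ringed. Values run from -1.09 for CR44955 to 3.33 for CR45310, and 61 of the 88 are positive.

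The CR-named genes leaned to the wing side. A positive log2 fold change was found in the authors' deposited table for 61 of the 88 (69.3%), and their median was 0.19, whereas 50.1% of all genes were positive with a median of 0.00047. Under 3 log2 CPM, 68.2% of 66 CR genes were positive, against 47.8% of 2116 other genes. By annotation, 36 of the 59 long non-coding RNAs (61%) and 9 of the 12 antisense RNAs (75%) were positive in the authors' deposited table, with medians of 0.14 and 0.08. The share was higher outside these classes. All 4 ribosomal RNA or pseudogene loci were positive, between 0.65 and 1.02, and so were 10 of the 11 unmatched genes, whose median was 0.48. None of these 15 passed an FDR of 0.05 (edgeR), and the exception among the unmatched genes was CR41619, at -0.94 (edgeR p = 0.207) in the authors' deposited table. Ribosomal RNA loci are near-identical copies, and reads that fit several copies may have been dropped or split by the authors' counting, so their values are uncertain. The read counter's line for reads outside annotated genes, 9.51% of the scaled total, stood at 0.65 (edgeR p = 0.031, FDR = 0.883) in the authors' deposited table, the same sign as most CR genes. Its line for reads with several alignments stood at 0.29 (edgeR p = 0.294, FDR = 1) in the authors' deposited table. The part of these reads in the values of the CR genes was not tested.

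In the haltere direction the CR genes with the largest changes at 1 log2 CPM or more were CR41619 (-0.94), CR44772 (-0.87), CR45232 (-0.50), CR32218 (-0.35) and CR42862 (-0.35). Their p-values in the authors' deposited table lay between 0.129 and 0.358 (edgeR), and their FDR was 1 in each case. On the wing side, after the called genes, the same rule named CR43431 (0.88, p-value 0.173) and the ribosomal RNA pseudogene CR41602 (0.80, p-value 0.119) in the authors' deposited table (edgeR). CR43431 lies 626 bases from CR32111, on the other strand, and the authors' deposited table lists CR32111 at 0.19, at 4.72 log2 CPM.

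In structure the CR genes were short, and the annotated exons of many merge into 1 block. Exons were merged over the transcripts of each gene, so 1 block does not show that every transcript is unspliced. Of the 77 with coordinates, 42 have 1 block (54.5%), against 8.82% of the protein-coding genes of the table. The median exon length was 1222 bases against 2230. The range was wide: CR40469 has 214 bases of exon, and CR43334 has 15466, merged over 3 transcripts into 1 block. By chromosome arm, 19 of the 77 lie on X (24.7%, against 16.9% of all genes placed), 3 on chromosome 4 (3.9% against 0.849%) and 10 on 3R (13% against 24.5%). CR32773 on X spans 223710 bases and overlaps the spans of 9 tested genes, among them bi (optomotor-blind), a T-box gene of the wing disc. At a mean level of 0.41 log2 CPM the RNA stood at -0.27 on the log2 scale, next to -0.29 for bi, and neither passed in the authors' deposited table (edgeR FDR = 1 for both).

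The authors' comparison also allowed each CR gene to be set beside its nearest gene with a row. Where a CR gene overlapped several genes, the 1 that shared the most span was taken. For 21 of the 77 the gene taken overlapped on the other strand, and for 12 on the same strand. The other 44 overlapped none and lay a median of 750 bases from the nearest. For 71 pairs in which the neighbour had no CR name, the log2 fold changes had a Pearson r of 0.53 and a Spearman rho of 0.44 across genes, and 45 of the 71 had the same sign. Without the 4 called genes r was 0.41 and rho 0.35 over 67 pairs. These are descriptions, since the genes come from the same libraries, are not independent replicates and in part share annotated sequence. The same values were not computed for pairs of other genes, so they cannot be read as a trait of the CR genes.

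**Figure D5:**
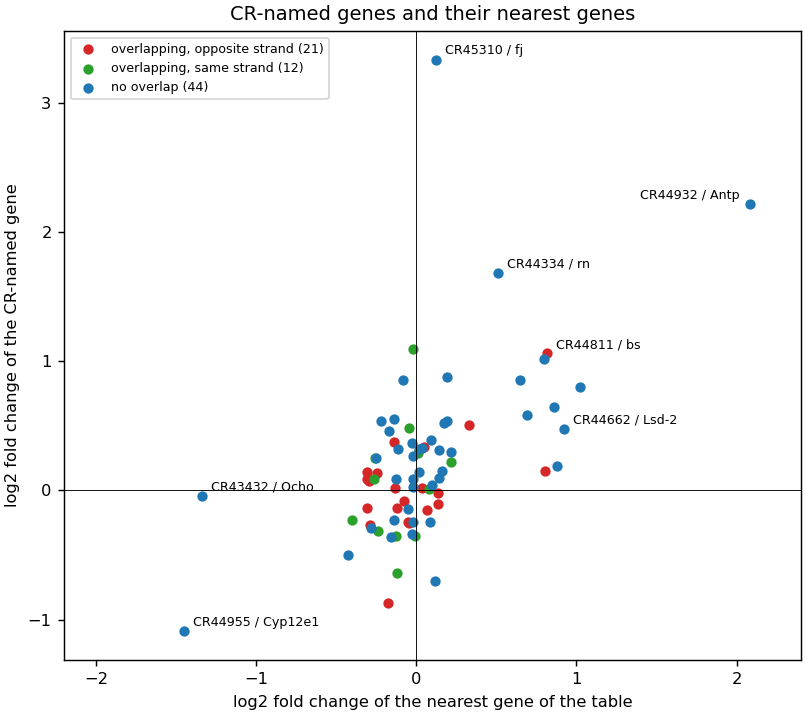
Log2 fold change of each of 77 CR-named genes against that of its nearest gene in the table (wing over haltere discs, as read from Ubx), coloured by overlap and strand. Most pairs lie near 0 in both; CR44932 and Antp are high together, CR44955 and Cyp12e1 are low together, and CR45310 is high while fj is near 0.

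Genes called between the tissues lay within 5 kb of 4 of the 77 CR genes (5.19%), against 1.93% of the other genes placed. Beside CR44932 and Antp these are CR43432, CR45232 and CR44662. CR43432 (marge) lies 585 bases from Ocho, a gene of the Bearded family of Notch pathway regulators. The authors' deposited table puts CR43432 at -0.05 (edgeR FDR = 1) and Ocho at -1.34 (edgeR FDR = 0.00992). CR45232 lies 573 bases from Nox, which encodes an NADPH oxidase, and stood at -0.50 (edgeR FDR = 1), against -1.16 for Nox (edgeR FDR = 0.0227) in the authors' deposited table. CR44662 lies 1277 bases from Lsd-2, a lipid droplet protein gene, and stood at 0.48 (edgeR FDR = 1), against 0.92 for Lsd-2 (edgeR FDR = 0.0212) in the authors' deposited table. CR44932 was the only one of these 4 CR genes that was itself called. Within 20 kb there were 7 such CR genes (9.09%, against 5.29% of the other genes), and CR32207, at 0.04, had the opposite sign to its called neighbour CG9449, at -2.45 in the authors' deposited table. CR44955, at -1.09 (edgeR p = 0.0494, FDR = 1), lies 25682 bases from Cyp12e1, a cytochrome P450 gene at -1.45 (edgeR p = 0.0188, FDR = 0.632) in the authors' deposited table.

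None of the 11 antisense RNAs other than CR44811 passed (edgeR FDR = 1 for each). In the authors' deposited table they ranged from -0.25 for CR44029, opposite unc-13, to 0.54 for CR43481, and the median absolute change of all 12 was 0.14. CR43957 lies opposite part of ci, the transcription factor of Hedgehog signalling, and was at 0.14 against -0.25 for ci in the authors' deposited table. CR45270 lies opposite part of grh, an epidermal transcription factor, and was at -0.08 against -0.07 for grh in the authors' deposited table. Of all CR genes, 11 have exon sequence under exons of tested genes on the other strand, up to 42.3% of the exons for CR31514. The kit keeps strand, per the labels, but how the counting treated strand is not given in the sources used here, so the table was examined for it. In the annotation used here, the exons of MP1 lie wholly under exons of Vps24 on the other strand, so a count without strand would assign it no unambiguous read, and MP1 stood at 5.87 log2 CPM in the authors' deposited table. Of the genes with at least 95% of their exons so covered, CG18598, GC2 and Est-P also have rows, at 0.13 to 0.95 log2 CPM, and the read counter's line for ambiguous reads made up 1.97% of the scaled total in the authors' deposited table. The annotation behind the counts may differ from the one used here.

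Other non-coding RNAs of the fly, listed by their given names, serve as a point of comparison. Of 31 listed, 14 have a row, and 2 were called in the authors' deposited table, both higher in haltere discs. The first is bxd, made in the bithorax complex 7698 bases upstream of Ubx, at -6.14 (edgeR FDR = 5.48e-11) and 0.76 log2 CPM in the authors' deposited table. The second is pncr002:3R (chr3R:6699560-6700164), now named lncRNA CR33938, at -2.98 (edgeR FDR = 5.48e-23) in the authors' deposited table. Its mean level was 6.31 log2 CPM in the authors' deposited table. Its nearest gene with a row, agt, lies 39459 bases away and was at 0.04 (edgeR FDR = 1) in the authors' deposited table. The other 12 did not pass. In the authors' deposited table roX1 and roX2, the RNAs of dosage compensation, stood at -0.11 and 0.53, and Hsromega, a heat shock RNA, at -0.13. The snoRNA host genes Uhg1, Uhg2, Uhg3, Uhg4, Uhg5 and Uhg8 lay between -0.04 and 0.35 there. The remaining genes were 7SK at -0.33, pncr009:3L at 0.10 and pncr013:4 at 0.28. For pncr013:4 the match to RefSeq gave no non-coding class, so its place among these RNAs rests on its listed name.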

How the data were processed

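RNA of 3 wing disc and 3 haltere disc samples was sequenced, and the authors fitted the tissues with edgeR, per the labels. HISAT2, HTSeq, edgeR and build dm6 are named without versions in the submitters' processing notes. Per the file headers, the deposited values are a log2 fold change, a mean log2 CPM, a p-value and an FDR per gene. No counts per sample were analysed here, so the planned count test was replaced by the deposited FDR, and depth and replicate spread are unknown. The 5 summary lines of the read counter were left out of gene counts. Recomputed Benjamini-Hochberg values matched the deposited FDR to within 6.24e-06. No column of values per sample was set aside.

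Names were matched by symbol or single-gene synonym to RefSeq and to Ensembl release 115 (BDGP6, dm6 coordinates), and 7660 of 7762 genes (98.7%) were placed. CPM per tissue were derived from the mean and fold change with equal weights. The adjustment and the interval functions were tested on simulated data. Named genes are the CR genes with an FDR or a p-value under 0.05, CR44932, the 10 most expressed, the 5 largest changes each way at 1 log2 CPM or more, and those within 5 kb of a called gene. Other genes named, such as CR45018, CR41609 and the antisense examples, were chosen after their values were seen. The name rule uses no value, but CR-named genes as a subject, and the lists, were chosen with earlier results of these data known. Samples are described as independent biological replicates. Python 3.11.15, pandas 2.3.3 and scipy 1.17.1 were used.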

Additional observations from a re-analysis of the deposited data

How the results depend on the processing

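The count of 4 called CR-named genes, and the 4 called on the wing side, became 2 at an FDR under 0.01 (CR45310 and CR44334 remained) and 1 under a Bonferroni adjustment (CR45310 remained, at 0.0459). CR44334, CR44811 and CR44932 then stood at 0.143, 1 and 1. Requiring 1 log2 CPM left 3, since CR45310 is below that level. A looser FDR of 0.1, a log2 change of at least 1, recomputed adjustment, removal of the summary lines, and keeping only genes annotated as non-coding RNA each gave 4. The count on the haltere side was 0 under all 8 alternatives. Most of these settings could not have moved either count. No other CR gene, in either direction, has an FDR under 0.1. The 4 called genes change by at least 1.06 and are annotated as non-coding RNA, and the recomputed adjustment repeats the deposited one. Of 15 adjusted p-values of the 4 called genes under other adjustments, 3 lost the call, and the 19 other named CR genes stood at 1 throughout, where nothing can move. The count of CR genes near a called gene was 3 at 1 kb and 7 at 20 kb. A filter at 1 log2 CPM moved the median absolute change to 0.31.

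All alternatives act on the same deposited p-values. No paired analysis was possible because the table holds no values per sample, and for the same reason no sample was left out, so whether 1 library decides a call is not known. What depth limits cannot be given, since it is unknown.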

Other observations

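A few genes with CG names have since been annotated as non-coding RNA. CG42254, now an antisense RNA that overlaps BEAF-32, stood at 1.70 (edgeR p = 0.00673, FDR = 0.294) in the authors' deposited table, at -0.17 log2 CPM. CG12688, now a long non-coding RNA on the X chromosome, stood at 1.58 (edgeR p = 0.0154, FDR = 0.547) in the authors' deposited table, at 0.33 log2 CPM. CG32582, now a long non-coding RNA, stood at -0.07 (edgeR p = 0.93, FDR = 1) in the authors' deposited table, at 0.74 log2 CPM. None of the 3 passed, and they were named after their values were seen. Of all 16 long non-coding or antisense RNA genes in the authors' deposited table without a CR name, 8 were positive and 8 negative.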
